A study of Homo sapiens with 4 samples.

Results

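Neuronal genes and targets of the repressor REST were followed in HEK293T cells after RNA interference against CHD6. The set holds REST itself, its corepressors RCOR1 and SIN3A, and 42 genes of neuronal structure, secretion and signalling, 45 genes in all out of 18334 measured. Members were taken by gene symbol, from array features whose annotation names exactly 1 gene, and the 91 features of the 45 genes were averaged per gene. HEK293T cells derive from human embryonic kidney, contain the large T antigen of SV40, and belong to a family of lines known for expressing some neuronal genes, neurofilaments among them. CHD6 is a chromodomain helicase that remodels nucleosomes with the energy of ATP.

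Cells received a plasmid expressing a siRNA specific for CHD6 or a plasmid expressing a control siRNA, and total RNA was taken at 48 h. Each of the 4 arrays was a direct 2-colour comparison of both conditions, with the CHD6 siRNA sample in Hy5 on replicates 2 and 4 and in Cy3 on replicates 1 and 3. Whether the replicates were separate cultures is not stated in the labels. The p-values therefore reflect only how far these 4 arrays differ, which may be a technical spread. Values are log2 ratios (an assumed base) of CHD6 siRNA over control siRNA. That direction is likely rather than settled: the array titles name the siRNA first, but the columns of opposite dye correlated below 0. A ratio gives no level, so whether a neuronal gene was expressed in these cells, and how strongly, could not be checked, nor could the markers of the cell line. In bulk RNA, fewer cells expressing a gene and less of its RNA per cell cannot be told apart.

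REST is a zinc finger repressor that keeps neuronal genes silent outside the nervous system. It binds a 21-base element, RE1, made of a left and a right arm, and recruits histone deacetylases and demethylases through RCOR1 and SIN3A. Loss of REST or of its corepressors is known to raise many neuronal genes in non-neuronal cells.

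The element was searched for in RefSeq promoter windows (GRCh38.p14) of 300 bases, 250 before and 50 after an annotated start. A form of its known consensus was searched for on both strands, written as a left arm, TTCAGCACC, then 2 bases of any kind, then a right arm of GGACAG, 1 base of any kind and GCC. Windows were held for 29 of the 45 members (62 windows). Of 35116 windows of all genes, 3 (0.00854%) held the whole element, and the members GRIA2 and SYN1 accounted for 2 of these 3. With 1 mismatch allowed, 8 windows (0.0228%) held it, and VGF was then added. The left arm lay in 0.376% of windows and the right arm in 0.846%, windows with the whole element included. SCG3 matched the left arm only and INA the right arm only. The 5 matches are shown because they are the member sequences with the letters of the element or of 1 arm. Each is on the strand that reads in the element's direction, with the matched stretch in capitals, the mismatched base of VGF included:
GRIA2 whole element: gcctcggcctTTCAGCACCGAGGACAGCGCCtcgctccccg
SYN1 whole element: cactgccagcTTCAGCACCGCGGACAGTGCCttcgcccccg
VGF whole element with 1 mismatch: ccggcTTCAGCACGCTGGACAGCGCCcgcg
SCG3 left arm: tcacaggaacTTCAGCACCcacagggcgg
INA right arm: tggggcgccgGGACAGGGCCatctgcatcg

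The GRIA2 stretch lies at chr4:157220378-157220418 on the minus strand, its element running opposite to the gene and covering the bases from 231 to 211 before a start of that gene. The SYN1 stretch is chrX:47620060-47620100, minus strand, with the element from 233 bases before the start. VGF's stretch is chr7:101165554-101165583, plus strand, SCG3's chr15:51681501-51681529, plus strand, and INA's chr10:103276950-103276979, minus strand. VGF's element runs opposite to the gene, from 10 bases before a start to the 11th base from it. The starts used for GRIA2 and VGF lie inside the annotated gene spans, chr4:157220120-157366075 and chr7:101162509-101169952. The VGF mismatch is C9G, counted from 1 at the first base of the element. A match is a description of the letters and not evidence of binding, and a window with none says only that these letters are not in it.

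CHD6 itself was below 0 on all 4 arrays in the direction used, which was chosen with these values known. Its 3 features averaged -0.42, -0.43, -0.28 and -0.65 on replicates 1 to 4, a mean of -0.45 ± 0.15 (SD, n = 4), or 73.4% of control. The gene did not pass the test (limma adjusted p = 0.134). Its feature 27564, at -1.15 ± 0.24 (SD, n = 4), did pass when features were tested singly over all 45220 (limma adjusted p = 0.0339), and the other features were at -0.015 and -0.17. Turned by dye, CHD6 would be at -0.095 (limma adjusted p = 0.346) and feature 27564 at -0.16 (limma adjusted p = 0.195).

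No neuronal gene, and neither REST nor its corepressors, passed the test. limma, with dye orientation as a coefficient and Benjamini-Hochberg adjustment over all 18334 genes, called 0 of 45 members higher (0% of all genes) and 0 of 45 lower (0.0218% of all genes, 4 in number). With the intercept alone it also called 0 members, and 0% of all genes. Before adjustment, 6 members had p under 0.05 on the higher side, 13.3% of the 45 against 4.97% of all genes, and 1 did on the lower side, 2.22% against 4.40%. With the intercept alone 1 member, GAP43, had an unadjusted p under 0.05, against 1.32% of all genes. The median of the 45 means was 0.038, against -0.0025 over all genes. Of the members, 32 (71.1%) had a mean above 0, against 48.9% of all genes. Both figures depend on the direction: turned by dye, 27 members (60%) would lie above 0 against 56.8% of all genes, with medians of 0.043 and 0.034. These counts describe the set and carry no test, since its members were chosen with results of these data known.

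**Figure D1:**
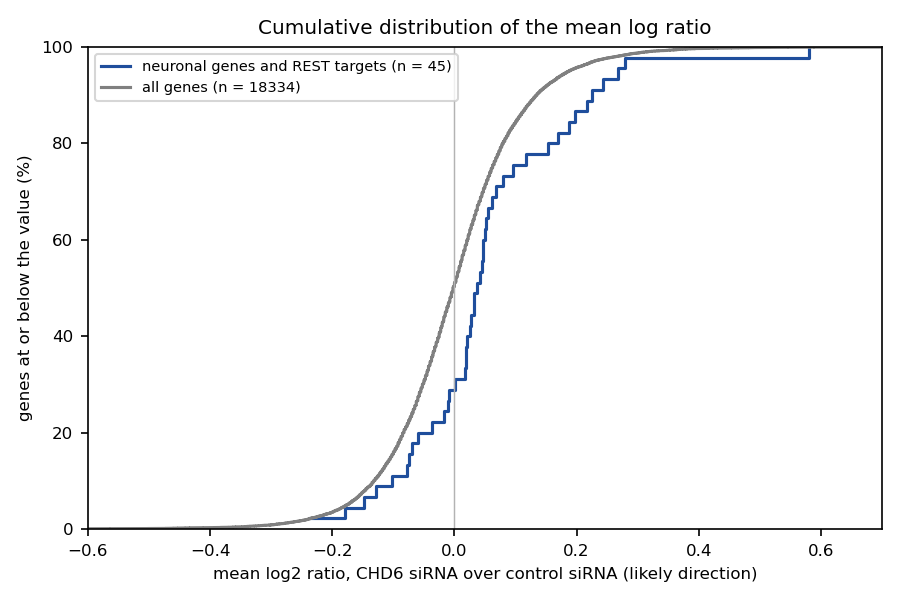
Share of genes (y axis, %) at or below each mean log2 ratio of CHD6 siRNA over control siRNA (x axis), for the 45 neuronal genes and REST targets and for all 18334 genes. The line of the 45 genes lies to the right of that of all genes over most of the range, with medians of 0.038 and -0.0025, and its last step is GAP43 at 0.58.

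REST and its corepressor RCOR1 were close to 0 in the mean, while the corepressor SIN3A lay below 0. REST was at -0.070 and -0.24 where the siRNA sample was in Hy5 and at 0.27 and 0.0050 where it was in Cy3. The 2 arrays on each side of 0 were thus those of 1 dye orientation. Its mean was -0.0094 ± 0.21 (SD, n = 4; limma adjusted p = 0.984), and its 4 features had means from -0.083 to 0.055. RCOR1, the scaffold that joins REST to the demethylase KDM1A and to histone deacetylases, gave log ratios of -0.21 and -0.44 where the siRNA sample was in Hy5 and of 0.34 and 0.31 where it was in Cy3. The arrays thus split by dye, and the mean was 0.0017 (adjusted p = 0.994). SIN3A, the scaffold of the other deacetylase complex that REST recruits, was at 0.42 and 0.050 in the Hy5 orientation and at -0.71 and -0.28 in the Cy3 orientation. Its mean of -0.13 ± 0.48 (SD, n = 4) did not pass (adjusted p = 0.742), and without 1 replicate it ran from -0.24 to -0.023.

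GAP43, the growth cone phosphoprotein of axon outgrowth and regeneration, had the highest mean of the set. Its single feature was at 0.13, 0.53, 0.62 and 1.04 on replicates 1 to 4, all above 0 and with the dye orientations overlapping. The mean was 0.58 ± 0.37 (SD, n = 4), a 1.49-fold ratio and the 8th highest of 18334 genes, and it did not pass (standard error 0.11 in the fit, unadjusted p = 0.000870, adjusted p = 0.175). Leaving out 1 replicate gave 0.45 to 0.71 in the fit, which weighs both dye orientations equally, with adjusted p-values from 0.260 to 0.945. The unadjusted p was 0.0172 in limma with the intercept alone, and 0.0817 in the fit without eBayes moderation. Over all alternatives that keep the direction the adjusted p ran from 0.137 to 1. Turned by dye, GAP43 would be at 0.21 (adjusted p = 0.179). It was the 1 member above 0 on all 4 arrays, 2.22% of the 45 against 3.55% of all genes.

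The 250 bases before the GAP43 start are shown because this gene lies farthest from 0; they are chr3:115623260-115623509, plus strand. They hold neither arm of the element in full, and the capitals mark GGACAG, the first letters of the right arm, which 20.5% of all windows hold on either strand:
GAP43 promoter: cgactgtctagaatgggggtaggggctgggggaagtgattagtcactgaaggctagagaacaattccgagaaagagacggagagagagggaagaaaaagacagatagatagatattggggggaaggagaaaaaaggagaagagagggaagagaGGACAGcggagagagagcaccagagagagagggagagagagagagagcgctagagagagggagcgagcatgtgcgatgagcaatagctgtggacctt

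The other growth cone genes lay on both sides of 0. STMN3, a stathmin that destabilises microtubules, gave log ratios of 0.60 and 0.95 where the siRNA sample was in Hy5 and of -0.27 and -0.31 where it was in Cy3. Its mean of 0.24 (unadjusted p = 0.0157, adjusted p = 0.398) was therefore an average over dye groups that did not overlap, and it would be 0.16 without replicate 4. STMN4, a further stathmin, was at -0.33, -0.29, -0.020 and -0.080 on replicates 1 to 4, below 0 on each, with a mean of -0.18 ± 0.15 (SD, n = 4; adjusted p = 0.538), or -0.10 without replicate 1. STMN2, the stathmin of regenerating axons, was near 0 (mean -0.011), with all its arrays between -0.11 and 0.040. DCX, the microtubule protein of migrating neurons, had a mean of 0.055.

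**Figure D2:**
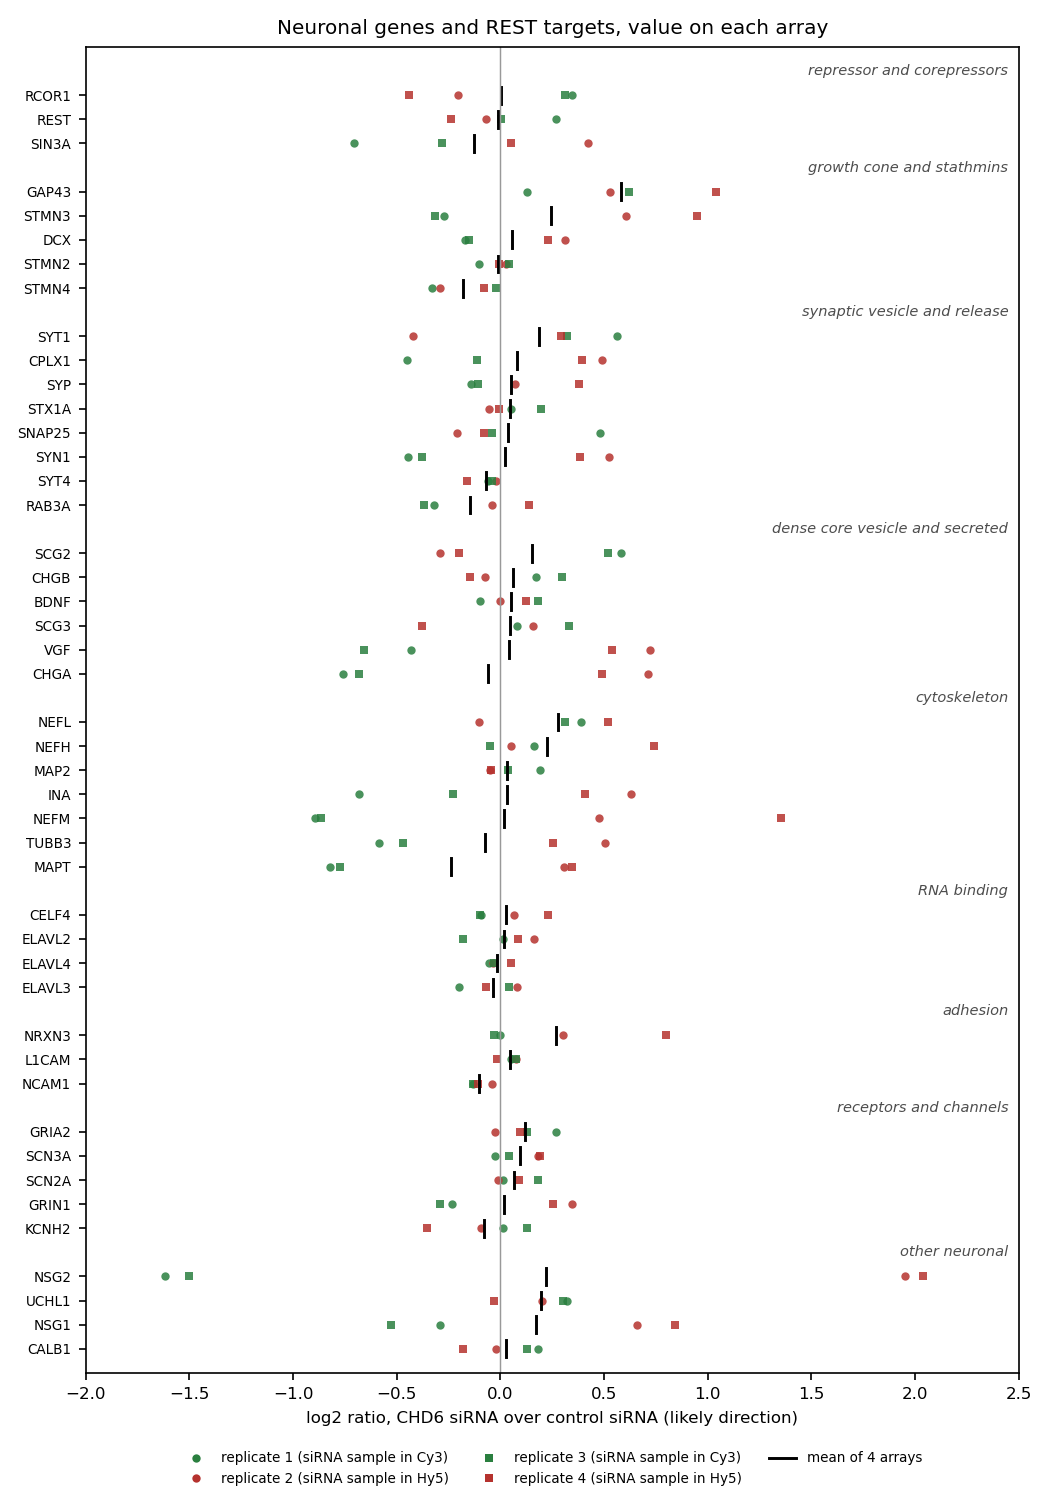
Log2 ratio of CHD6 siRNA over control siRNA (x axis) on each of the 4 arrays for the 45 genes, by role, with the mean as a black bar; colour gives the dye of the siRNA sample and shape the replicate. GAP43 is above 0 on all 4 arrays, STMN4, SYT4 and NCAM1 are below 0 on all 4, and NSG2, NEFM and CHGA split widely by dye.

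Cytoskeletal genes gave both the lowest mean of the set and some of the highest. MAPT, which encodes tau, gave log ratios of 0.31 and 0.34 where the siRNA sample was in Hy5 and of -0.82 and -0.77 where it was in Cy3. Its 11 features, annotated to 1 transcript and possibly carrying 1 probe sequence, all had means below 0, from -0.49 to -0.078. The gene mean of -0.24 did not pass (unadjusted p = 0.00716, adjusted p = 0.323). The neurofilament light chain gene NEFL was at 0.39, -0.11, 0.31 and 0.52 on replicates 1 to 4, with 3 arrays above 0 and a mean of 0.28 ± 0.27 (SD, n = 4; adjusted p = 0.464). That mean was 0.12 without replicate 4 and 0.44 without replicate 2. NEFH, the heavy chain, averaged 0.23 but 0.053 without replicate 4, where it stood at 0.74. NEFM, the medium chain, was at 0.48 and 1.36 in the Hy5 orientation and at -0.90 and -0.87 in the Cy3 orientation, so its mean of 0.018 is a difference of large values. The remaining cytoskeletal members were INA, a further neuronal intermediate filament (0.033), MAP2 of dendritic microtubules (0.033), and TUBB3, the neuronal beta tubulin (-0.074). Of the 7 cytoskeletal genes, 5 had a mean above 0 and the median was 0.033.

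Genes of synaptic vesicles and of their release did not pass in either direction, with 6 of 8 means above 0 and a median of 0.042. SYT1, the calcium sensor of fast release, had the highest mean (0.19 ± 0.42, SD, n = 4; adjusted p = 0.675), with values of -0.42 on replicate 2 and 0.29 to 0.56 on the others. That mean was 0.010 without replicate 4 and 0.37 without replicate 2. CPLX1, a complexin that regulates the fusion machinery, had a mean of 0.080. The vesicle membrane protein gene SYP was at 0.050, and the plasma membrane SNARE genes STX1A and SNAP25 at 0.046 and 0.038. SYN1, the vesicle phosphoprotein whose promoter holds the whole element shown above, was at 0.53 and 0.39 in the Hy5 orientation and at -0.45 and -0.38 in the Cy3 orientation. Its mean was 0.021 (adjusted p = 0.955). RAB3A, a GTPase of vesicle docking, was at -0.040 and 0.14 in the Hy5 orientation and at -0.32 and -0.37 in the Cy3 orientation, with a mean of -0.15 (adjusted p = 0.560). SYT4, a synaptotagmin, was below 0 on all 4 arrays by small amounts, -0.060, -0.020, -0.040 and -0.16 on replicates 1 to 4 (mean -0.070, or -0.035 without replicate 4; adjusted p = 0.808).

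Genes of dense core vesicle cargo had dye differences larger in size than their means, with BDNF as the exception. SCG2, a granin, had the highest mean of these 6 genes at 0.15 (adjusted p = 0.531), from -0.29 and -0.20 in the Hy5 orientation and 0.58 and 0.52 in the Cy3 orientation. CHGA, chromogranin A, split the other way, at 0.71 and 0.49 in the Hy5 orientation and -0.76 and -0.68 in the Cy3 orientation, with a mean of -0.060. VGF, a neurosecretory peptide precursor, was at 0.72 and 0.54 in the Hy5 orientation and at -0.43 and -0.66 in the Cy3 orientation, with a mean of 0.043 (adjusted p = 0.910). SCG3, another granin, and CHGB, chromogranin B, had means of 0.046 and 0.061. The neurotrophin gene BDNF had a mean of 0.051.

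Among receptors, channels and adhesion genes, NRXN3 had the mean farthest from 0. This presynaptic neurexin was at 0.30 and 0.80 in the Hy5 orientation and at 0 and -0.030 in the Cy3 orientation. Its mean of 0.27 ± 0.39 (SD, n = 4; unadjusted p = 0.0193, adjusted p = 0.426) would be 0.14 without replicate 4. The AMPA receptor subunit gene GRIA2, the other member with a whole element in a promoter window, was at 0.27, -0.027, 0.13 and 0.097 on replicates 1 to 4. With 3 arrays above 0, its mean was 0.12 ± 0.12 (SD, n = 4; adjusted p = 0.659). The neuronal sodium channel genes SCN3A and SCN2A had means of 0.096 and 0.068, GRIN1, the obligatory NMDA receptor subunit, 0.019, and the potassium channel gene KCNH2 -0.078. Among adhesion molecules, NCAM1 was below 0 on each array (-0.13, -0.040, -0.13 and -0.11 on replicates 1 to 4), with a mean of -0.10 ± 0.043 (SD, n = 4; adjusted p = 0.690), and L1CAM had a mean of 0.046. The members below 0 on all 4 arrays were thus NCAM1, STMN4 and SYT4, 3 of 45 (6.67%) against 3.49% of all genes.

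The RNA-binding proteins of neurons showed the smallest deviations by role. ELAVL2, ELAVL3 and ELAVL4, Hu proteins that stabilise neuronal mRNAs, had means of 0.019, -0.038 and -0.017, and CELF4, a regulator of splicing and mRNA stability, 0.026. Their adjusted p-values were all at least 0.924. Of the remaining genes, UCHL1, the neuronal ubiquitin hydrolase, was at 0.32, 0.20, 0.30 and -0.030 on replicates 1 to 4, above 0 on 3, with a mean of 0.20 ± 0.16 (SD, n = 4; unadjusted p = 0.0251, adjusted p = 0.452). NSG1 and NSG2, paralogous endosomal proteins of neurons, had means of 0.17 and 0.22, and CALB1, the calcium buffer calbindin, 0.028.

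Dye orientation separated the values of most members further than their means lay from 0, as it did over the whole array. The dye coefficient is the mean over the Hy5 arrays minus the mean over the Cy3 arrays, divided by 2, and it would be the treatment difference if the columns were ratios of the dyes. Over the 45 members the coefficient had an SD of 0.38, while the mean log ratios had one of 0.14. Over all genes those SDs were 0.38 and 0.12. The coefficient exceeded the mean in size for 33 of 45 members (73.3%), against 75.9% of all genes. limma called it above 0 for 16 members (35.6%, against 26.9% of all genes) and below 0 for 2 (4.44%, against 18.0%). Turned by dye, 24 members (53.3%, against 52.7% of all genes) would have 1 sign on all 4 arrays. NSG2 had the largest coefficient of the set, 1.78 (adjusted p = 1.98e-05), with log ratios of 1.95 and 2.04 in the Hy5 orientation and -1.62 and -1.50 in the Cy3 orientation, so that its mean of 0.22 (adjusted p = 0.368) came from a small difference between large values. Quantile normalization reduced that mean to 0.078. NEFM (0.90), CHGA (0.66) and VGF (0.59) followed. RCOR1 (-0.33) and SCG2 (-0.40) were the members called below 0. Across the 45 genes, arrays of the same orientation correlated at 0.88 and 0.78 and arrays of opposite orientation at -0.81 to -0.60, as a description over genes that share 4 hybridisations.

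**Figure D3:**
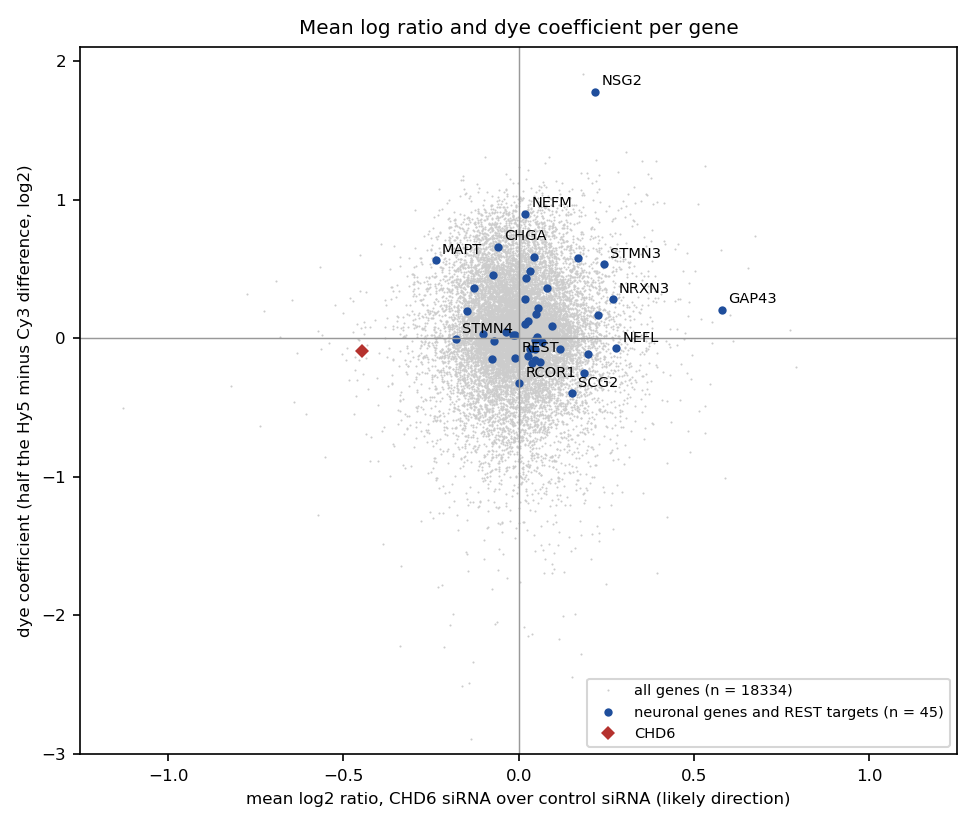
Mean log2 ratio of CHD6 siRNA over control siRNA (x axis) against the dye coefficient (y axis, log2) for the 45 neuronal genes and REST targets, CHD6 and all 18334 genes. GAP43 lies farthest right of the set at 0.58 with a dye coefficient of 0.21, and NSG2 highest at 1.78.

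Of the 45 genes, 27 had several features and 18 had 1. The features of a gene spanned a wider range of dye coefficients than of means for 22 of the 27, and not for BDNF, GRIA2, SCN3A, MAPT and ELAVL3. No gene had features that differed by 0.5 or more in mean log ratio (0 of 27). Neither share was counted over all genes, where the dye coefficients also had a wider SD than the means (0.38 against 0.12). These counts are thus no result about the members. For SIN3A the features had dye coefficients of -0.21 and 0.93 but means of -0.15 and -0.11. Those of STMN3, annotated to 1 transcript, had dye coefficients from -0.20 to 0.93 and means from 0.18 to 0.31, so all 3 lay above 0. TUBB3, with 2 features on 1 transcript, ran from 0.073 to 0.84 in the dye coefficient and from -0.23 to 0.078 in the mean. The KCNH2 features, annotated to different transcripts, had coefficients of -0.57 and 0.27.

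**Figure D4:**
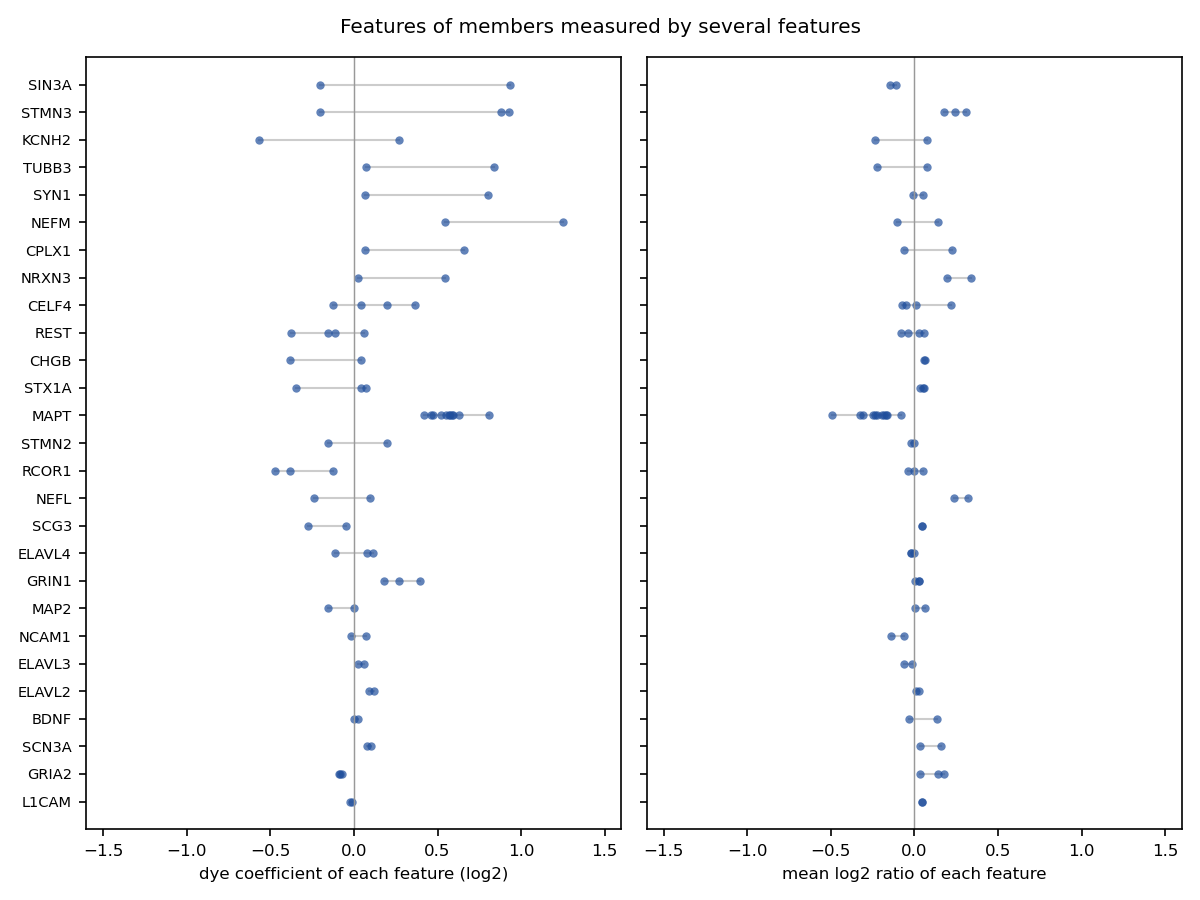
Dye coefficient (left) and mean log2 ratio of CHD6 siRNA over control siRNA (right) of every feature of the 27 genes with several features, a line joining the features of a gene. SIN3A and STMN3 span the widest range of dye coefficients, up to 0.93, while no gene's means span 0.5.

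Other genes of the same pathways, listed beside the members, gave the same count of calls. Of 20 measured partners of the REST complexes 0 passed in the direction used, 7 had a mean above 0 and 13 below, and the median was -0.065. SIN3B, the paralog of SIN3A, was highest by p at 0.19 (adjusted p = 0.589), and EHMT2, a histone H3 methyltransferase, had the smallest p below 0 (-0.14, adjusted p = 0.580). Turned by dye, 11 of the 20 would be called above 0 and 5 below, with a median of 0.28. Over all genes 26.9% would be called above 0 and 18.0% below, with a median of 0.034. Of 9 genes that control REST turnover or encode related phosphatases, 0 passed, with a median of -0.083; CTDSPL, a small phosphatase, was at -0.20 (adjusted p = 0.530) and its relative CTDSP1 at 0.071. Of 62 further neuronal genes and REST targets 0 passed, 31 had a mean above 0 and 30 below, and the median was 0.0013. BEX1, a neuronal adaptor protein, was at -0.27 and -0.47 in the Hy5 orientation and at 0.98 and 1.19 in the Cy3 orientation (mean 0.36, adjusted p = 0.217). SYN2, a paralog of SYN1, had the smallest p below 0 (-0.16, adjusted p = 0.531). Turned by dye, 4 of the 9 and 22 of the 62 would be called in either direction, against 8219 of 18334 genes.

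Markers of other cell types gave 0 calls in the direction used. Turned by dye, 2 of 9 glial, 2 of 9 immune, 2 of 10 fibroblast and keratinocyte and 3 of 9 kidney markers would be called. In that reading 8219 of 18334 genes would be called, 26.9% of all genes above 0 and 18.0% below. THY1 would be among the called markers, at 0.86 (adjusted p = 9.62e-05). The medians were -0.038 for 9 markers of glia, 0.047 for 9 of immune cells, 0.020 for 10 of fibroblasts and keratinocytes and 0.011 for 9 of kidney epithelium. The genes with the smallest p above and below 0 were MOG (0.12) and SLC1A2 (-0.072) of glia, CD68 (0.16) and CD3E (-0.12) of immune cells, PDGFRA (0.20) and THY1 (-0.078) of fibroblasts, and PAX2 (0.13) and PAX8 (-0.11) of kidney. Adjusted p was at least 0.440 for each of them in the direction used.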

How the data were processed

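The authors deposited 1 log2 ratio (base assumed) per feature and array, for 45220 features and 4 arrays, rounded to 2 decimals, with 0 missing values and 0 unused columns. Per the labels' protocols, T7 amplification from an oligo dT primer started from 200 ng of total RNA and gave dye-labelled RNA for Agilent 2-colour arrays. For background correction, normalization, centring, log base and direction, nothing is given in the sources used here. Column means were 0 to within rounding and medians were -0.02, 0.03, -0.02 and 0.02 for replicates 1 to 4. No intensities or flags were used here, control spots could not be told from others, signal over background is unknown, and precision is limited by having only 4 arrays.

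Feature names came from GEO's annotation of the platform, checked by Entrez identifier against a RefSeq table (31291 matched). Of these features 31332 named 1 gene, 93 several and 13795 none, and features were averaged per gene. Columns were read as CHD6 siRNA over control siRNA, as the titles name them. That reading was chosen with CHD6 values known. Across all features, arrays of opposite dye correlated at -0.84 to -0.68 and arrays of the same dye at 0.80 and 0.79.

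limma 3.58.1 in R 4.3.3 was fitted with an intercept and a dye coefficient, with moderated variances (eBayes), and p-values were adjusted by Benjamini-Hochberg over the 18334 genes, with a threshold of 0.05. The intercept alone was an alternative. An exact sign-flip test of 4 arrays cannot go below a two-sided p of 0.125. The fit was also run on data simulated from its own model in the direction used, which cannot test that model or that direction. The members, lists and fit were chosen with earlier results of these data known. The genes described in full were CHD6, REST, RCOR1, SIN3A and GAP43, members with 1 sign on all 4 arrays, the 4 smallest p-values per direction and the 4 largest dye coefficients; for other lists, the smallest p in each direction. NEFL and UCHL1 were added after their values were seen, as were SYN1, GRIA2, SCG2, SYT1, NEFH and the feature examples. Alternatives covered dye, direction, replicates, features, centring, scaling and moderation.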

Additional observations from a re-analysis of the deposited data

How the results depend on the processing

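No paired analysis was possible because 1 group of 4 arrays leaves no second group for a replicate block; each log ratio already pairs both conditions on 1 array. Columns turned by dye gave the largest changes. With dye orientation in that fit 18 members passed, among 8219 of 18334 genes, and 24 members (53.3%, against 52.7% of all genes) had 1 sign on all 4 arrays. With the intercept alone 16 members and 7700 genes passed. In that reading CHD6 would be at -0.095. In either fit 23 of the 45 members changed direction. RCOR1 (-0.33), SNAP25 (-0.18), SYT1 (-0.25), STX1A (-0.076), CHGB (-0.17), SCG2 (-0.40), SCG3 (-0.16), NEFL (-0.071), MAP2 (-0.080), L1CAM (-0.016), GRIA2 (-0.082), SCN2A (-0.028), UCHL1 (-0.11) and CALB1 (-0.13) would be lower. SIN3A (0.36), STMN2 (0.021), RAB3A (0.20), CHGA (0.66), TUBB3 (0.45), MAPT (0.56), ELAVL3 (0.043), ELAVL4 (0.025) and NCAM1 (0.028) would be higher. The cause of this difference between readings was not tested.

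In the direction used, 0 members passed under every alternative run. Calls over all genes went to 0 with the intercept alone, without eBayes (5 genes with no residual spread were not testable there) and without any 1 replicate. They were 7 to 9 under robust eBayes (7), median centring (7), feature medians (8) and equal scaling (9). With features tested singly, 9 of all 45220 features passed, a count of features and not of genes. Without eBayes 0 members were called on the dye coefficient. Single features gave 7 members with 1 sign in any of their features. Leaving out 1 replicate gave 6 to 9 members of 1 sign on the remaining arrays and 10 to 16 called on the dye coefficient. For these settings the share over all genes was not counted, and 1 sign is easier to reach on fewer arrays. The counts are thus no result about the members. Means near 0 changed sign with small changes. Feature medians put RCOR1 at -0.033 and CELF4 at -0.019, median centring RCOR1 at -0.00083, and quantile normalization NEFM at -0.053. Single features of several genes lay across 0 from the gene mean. Examples are SYN1 (-0.010), CPLX1 (-0.0625), TUBB3 (0.0775), KCNH2 (0.0775) and REST (0.055). Leaving out 1 replicate turned 19 genes, whose ranges were REST -0.075 to 0.056, RCOR1 -0.058 to 0.061, STMN2 -0.048 to 0.025, SNAP25 -0.092 to 0.17, SYP -0.028 to 0.13, SYN1 -0.014 to 0.056, CPLX1 -0.0037 to 0.16, VGF -0.015 to 0.10, SCG3 -0.087 to 0.18 and BDNF -0.019 to 0.12. The others were NEFM -0.20 to 0.24, INA -0.080 to 0.14, MAP2 -0.0063 to 0.071, ELAVL2 -0.029 to 0.066, ELAVL3 -0.098 to 0.022, ELAVL4 -0.039 to 0.0058, CELF4 -0.016 to 0.067, GRIN1 -0.0042 to 0.043 and CALB1 -0.013 to 0.068. With no channel intensities used here, no filter on dim features could be tried.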
